A study of Mus musculus with 36 samples.

Results

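Mouse cortical neurons that had first been silenced were compared after 6 h of brain-derived neurotrophic factor (BDNF) and after 6 h of depolarisation by potassium chloride (KCl). The comparison rests on 4 of the 18 RNA-seq libraries of a series of 36 samples, and its members were chosen by their labels, not by any measured value. The neurons came from cortices of CD-1 embryos at embryonic day 15, with the tissue of all embryos pooled, and were kept for 7 days in vitro. Every culture, the controls included, received 100 µM AP-5, which blocks NMDA receptors, and 1 µM TTX, which blocks voltage-gated sodium channels, for 2 h. The 6 h groups then received 10 ng/ml BDNF or 55 mM KCl. The 6 control libraries stayed in AP-5 and TTX alone for 3, 8 or 12 h in all, and no label names an altered gene in any group. Each stimulus has 2 libraries at 6 h, A and B. The study calls them biological replicates, and neither it nor the labels say whether they came from separate dissections. Each RNA p-value rests on the spread between libraries within groups, estimated over all 18 RNA libraries. In that estimate the 6 controls of all times count as 1 group.

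BDNF is a secreted neurotrophin. It binds the receptor tyrosine kinase TrkB, encoded by Ntrk2, which signals through the Ras and MAP kinase pathway, phosphoinositide 3-kinase and phospholipase C. Raised extracellular potassium depolarises the membrane directly and opens voltage-gated calcium channels, and the calcium that enters acts through CaM kinases, calcineurin and the factor CREB. Both routes switch on immediate early genes, whose products include transcription factors, and a later wave of effector genes follows. At 6 h a culture therefore holds both early transcripts that are still made and late ones.

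The 4 libraries held 13365788 and 13083893 reads on genes (BDNF A and B) and 13272598 and 11536208 (KCl A and B), within 8508452 to 36699187 over all 18. Library KCl B stood apart. Transcripts related to ribosomal RNA took 3.48% of its reads, against 0.0542% to 0.448% in the other 17 libraries. The standard deviation of the log2 ratio of B to A over 11493 genes was 0.316 for KCl and 0.146 for BDNF, so the KCl pair was the less alike. The standard errors and p-values of the RNA tests use a spread per gene shared by all 18 libraries. They may therefore understate the replicate error of the KCl pair. All 13 pan-neuronal markers were measured, and their summed share of reads was 0.733% to 0.858% in the 4 libraries. The summed shares of other cell types were 0.264% to 0.305% for 17 astrocyte and radial glial markers, 0.0502% to 0.0587% for 9 oligodendrocyte lineage markers, 0.0303% to 0.0395% for 8 vascular and meningeal markers and 0.00140% to 0.00233% for 8 microglial markers, and no marker tested was at 0 in all 4 libraries. These are bulk cultures, in which fewer cells of a type and less RNA per cell cannot be told apart.

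BDNF and KCl left different transcriptomes at 6 h. A difference is given throughout as log2 of BDNF minus log2 of KCl, on the log2(normalised read count + 1) scale, so a positive value means higher with BDNF. Of 16209 genes tested with limma (adjusted p below 0.1), 4792 (29.6%) were higher with BDNF and 4501 (27.8%) were higher with KCl. At 2-fold or more, 1190 genes (7.34%) were higher with BDNF and 812 (5.01%) with KCl. Both BDNF libraries lay above both KCl libraries in 5960 genes (36.8%), and the reverse held in 5797 (35.8%). The median difference over all genes was 0.00 with the deposited size factors. Scaling each library to its total instead moved that median by 0.14 towards BDNF and the split to 6178 genes higher with BDNF and 3212 with KCl. A class median smaller than this shift is therefore given no direction.

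**Figure D1:**
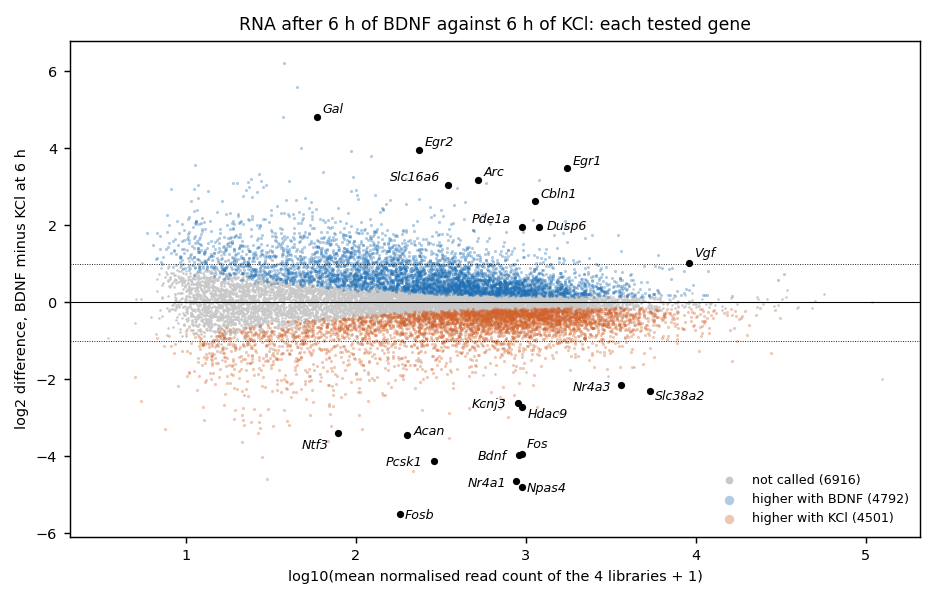
Log2 difference (BDNF minus KCl at 6 h) of each tested gene against the log10 of its mean normalised read count in the 4 libraries, with the 4792 genes called higher with BDNF in blue, the 4501 called higher with KCl in orange and the rest in grey. Dotted lines mark a 2-fold difference. Fosb, Npas4, Nr4a1, Pcsk1, Bdnf and Fos lie lowest among the genes labelled, while Gal, Egr2, Egr1 and Arc lie highest.

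Genes at least 2-fold apart were called against the controls more often with KCl than with BDNF. Of the 1190 genes at least 2-fold higher with BDNF, 708 (59.5%) had fallen with KCl against the 6 controls and were not called with BDNF, 219 (18.4%) had risen with BDNF and fallen with KCl, and 141 (11.8%) had fallen with both. Just 69 (5.80%) had risen with BDNF while not called with KCl, and 49 (4.12%) had risen with both. Their median difference from the controls was 0.05 with BDNF and -1.25 with KCl. Of the 812 genes at least 2-fold higher with KCl, 344 (42.4%) had risen with KCl and were not called with BDNF, and 305 (37.6%) had risen with KCl and fallen with BDNF. A further 82 (10.1%) had fallen with BDNF alone, and 60 (7.39%) had risen with both. Their median difference from the controls was -0.36 with BDNF and 1.03 with KCl. Both stimuli are set here against the same 6 controls. The genes were also chosen by the same 6 h libraries, and a gene not called may still have changed. Over all genes tested, 22.1% rose and 21.1% fell with BDNF, and 33.4% rose and 33.1% fell with KCl. Without BDNF A or BDNF B, the genes called with BDNF against the controls went from 7014 to 4637 or 4444.

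The largest differences in favour of BDNF, among genes with a mean of at least 100 normalised reads, were led by Egr2 (chr10:67535475-67542188), a zinc-finger factor of the early growth response family. Egr2 was at 477 and 408 normalised reads in BDNF A and B, 29.5 and 25.5 in KCl A and B, and 8.30, 11.5 and 15.6 in the lowest, median and highest control. Its difference was 3.96 ± 0.22 (SE, limma adjusted p = 5.62e-12), and both KCl libraries also lay above every control. Egr1, of the same family, was at 3378 and 3059.5 with BDNF against 312 and 266 with KCl, over controls of 194 to 247. Arc (chr15:74669083-74672570), a cytoskeletal protein that regulates AMPA receptor traffic at synapses, was at 919.7 and 957 with BDNF, 118 and 89.1 with KCl and 25.1, 34.2 and 39.4 in the lowest, median and highest control, a difference of 3.18 ± 0.19 (limma adjusted p = 2.41e-11). For these 3 genes the controls were lowest, KCl intermediate and BDNF highest.

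The other 7 of the 10 largest differences showed another order, in that all rose with BDNF and fell with KCl against the controls. Galnt9, which starts O-linked glycan chains, was at 2054 and 2217 with BDNF against 296 and 186 with KCl, and its lowest, median and highest controls were 518, 612 and 679. Icam5, an adhesion protein of forebrain dendrites, was at 1008 and 1076 with BDNF against 156 and 92.6 with KCl, with controls of 156 to 259. Podn, an extracellular matrix proteoglycan, was at 372 and 340.4 with BDNF against 39.3 and 35.9 with KCl, and its controls spanned 93.2 to 124. The transporter gene Slc16a6 was at 604 and 635 with BDNF against 76.7 and 70.6 with KCl, with controls of 405 to 513. For Slc16a6 most of the distance lay on the KCl side: it rose by 0.46 ± 0.12 with BDNF and the KCl difference from the controls was -2.59 ± 0.12. Mirt1, a long non-coding RNA, was at 233 and 220.5 with BDNF against 20.6 and 11.6 with KCl (controls 28.5 to 55.2). Sh2d5, an adaptor with an SH2 domain, was at 737 and 648 with BDNF against 99.3 and 76.4 with KCl (controls 108 to 152). Alk, a receptor tyrosine kinase, was at 225 and 221 with BDNF against 48.2 and 20.8 with KCl (controls 42.5 to 69.7). Library KCl A lay inside the range of the controls for Icam5 and Alk, and both KCl libraries lay below it for the other 5. All 10 kept both BDNF libraries above both KCl libraries, with limma adjusted p of at most 4.18e-07.

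Early transcription factors led the genes higher with KCl. Fosb (chr7:19302696-19310051), a partner of Jun in the AP-1 factor, was at 6.31 and 7.32 normalised reads with BDNF, 344 and 360.0 with KCl and 4.93, 6.40 and 10.8 in the lowest, median and highest control. Its difference was -5.50 ± 0.27 (limma adjusted p = 9.90e-13), and with BDNF it lay within the range of the controls. Npas4 (chr19:4984355-4990316), an activity-regulated factor that answers to calcium, was at 64.0 and 65.0 with BDNF, 1908 and 1735 with KCl and 60.1, 90.5 and 114 in the lowest, median and highest control, a difference of -4.80 ± 0.34 (limma adjusted p = 8.26e-08). Nr4a1 (chr15:101254269-101274795), an orphan nuclear receptor, was at 58.6 and 74.1 with BDNF against 1684 and 1681 with KCl, with controls of 50.9 to 64.4, a difference of -4.65 ± 0.14 (limma adjusted p = 3.56e-16). Fos (chr12:85473890-85477273) rose with BDNF as well, whereas the other 3 were not called with BDNF against the controls. Its values were 125 and 105 with BDNF, 1727 and 1809 with KCl and 25.1, 33.3 and 43.3 in the lowest, median and highest control, and the difference was -3.93 ± 0.18 (limma adjusted p = 1.41e-12).

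Genes for secreted and matrix proteins filled much of the rest of the KCl list. The Bdnf gene itself (chr2:109674700-109727007) was at 97.3 and 121 normalised reads in the cultures given BDNF protein and 1704 and 1721 in those given KCl, with 38.5, 62.5 and 65.1 in the lowest, median and highest control. The difference was -3.97 ± 0.23 (limma adjusted p = 2.22e-10). Adcyap1, the precursor of the neuropeptide PACAP, was at 19.8 and 17.4 with BDNF against 429 and 391 with KCl and its controls at 45.7 to 72.1: its difference from the controls was -1.50 ± 0.24 with BDNF and 2.89 ± 0.24 with KCl. Pcsk1, a convertase that cuts prohormones, was at 33.3 and 27.4 with BDNF against 575 and 511 with KCl, with controls of 16.6 to 31.9. Acan, the proteoglycan aggrecan of perineuronal nets, was at 27.9 and 33.9 with BDNF against 470.0 and 258 with KCl, the KCl libraries lying apart from each other but both above every BDNF and control value (controls 7.26 to 20.4). Mir670hg, a microRNA host transcript, was at 51.3 and 59.5 with BDNF against 604 and 685 with KCl. Mcam, an adhesion molecule, was at 18.9 and 19.2 with BDNF against 188 and 203 with KCl. In all 10 genes of this list, the early factors included, both KCl libraries exceeded every BDNF and control library. The limma adjusted p of the 10 genes was at most 1.05e-07.

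**Figure D2:**
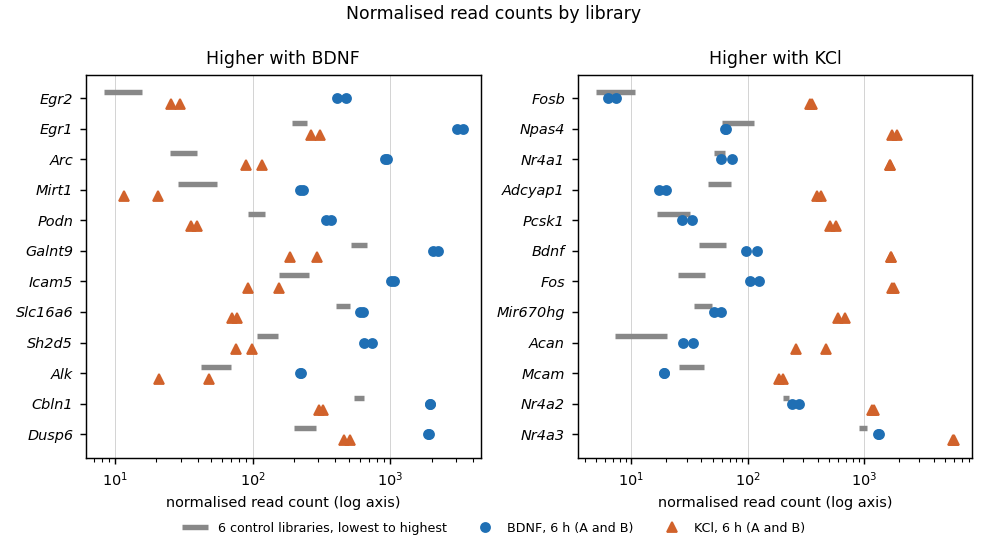
Normalised read counts (log axis) in each library for 12 genes higher with BDNF (left) and 12 higher with KCl (right). Blue circles are BDNF A and B, orange triangles KCl A and B, and grey bars run from the lowest to the highest of the 6 controls, and in no gene shown do the circles and triangles overlap.

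The letters before the transcription start are shown for genes from both ends. Each run is the 250 bases before a RefSeq start (GRCm38.p6), 5′ to 3′ towards the gene. Capitals mark matches on either strand to the CRE core TGACG (the full element is TGACGTCA, where CREB binds), the AP-1 site TGANTCA, the EGR site GCGNGGGCG and the CArG box bound by SRF. Overlapping matches share their capitals.
Fos (chr12:85473640-85473889, plus strand): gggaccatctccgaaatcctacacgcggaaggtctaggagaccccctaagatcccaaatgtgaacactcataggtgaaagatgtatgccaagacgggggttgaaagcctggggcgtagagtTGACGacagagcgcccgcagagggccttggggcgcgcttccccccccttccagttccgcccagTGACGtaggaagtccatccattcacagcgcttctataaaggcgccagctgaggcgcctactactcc
Fosb (chr7:19310046-19310295, minus strand): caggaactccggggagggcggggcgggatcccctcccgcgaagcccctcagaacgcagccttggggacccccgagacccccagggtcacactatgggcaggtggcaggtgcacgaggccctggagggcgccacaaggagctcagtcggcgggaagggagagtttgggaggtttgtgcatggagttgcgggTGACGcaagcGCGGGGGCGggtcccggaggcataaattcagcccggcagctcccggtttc
Nr4a1 (chr15:101266596-101266845, plus strand): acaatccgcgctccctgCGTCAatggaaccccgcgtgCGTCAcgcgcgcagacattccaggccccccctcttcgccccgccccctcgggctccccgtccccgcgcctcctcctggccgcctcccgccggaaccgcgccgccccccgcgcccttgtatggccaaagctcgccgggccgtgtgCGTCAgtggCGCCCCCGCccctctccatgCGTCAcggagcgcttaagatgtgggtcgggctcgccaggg
Bdnf (chr2:109692186-109692435, plus strand): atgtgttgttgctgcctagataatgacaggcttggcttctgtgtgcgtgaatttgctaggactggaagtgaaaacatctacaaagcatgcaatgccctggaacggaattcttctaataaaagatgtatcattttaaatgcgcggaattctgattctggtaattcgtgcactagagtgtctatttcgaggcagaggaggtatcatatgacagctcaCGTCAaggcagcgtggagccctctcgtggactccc
Egr2 (chr10:67537619-67537868, plus strand): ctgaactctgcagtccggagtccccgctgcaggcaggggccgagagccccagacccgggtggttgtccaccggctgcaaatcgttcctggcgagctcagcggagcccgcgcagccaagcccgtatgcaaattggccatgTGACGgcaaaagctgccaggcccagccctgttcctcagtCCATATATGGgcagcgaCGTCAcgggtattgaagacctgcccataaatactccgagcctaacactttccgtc
Dusp6 (chr10:99262981-99263230, plus strand): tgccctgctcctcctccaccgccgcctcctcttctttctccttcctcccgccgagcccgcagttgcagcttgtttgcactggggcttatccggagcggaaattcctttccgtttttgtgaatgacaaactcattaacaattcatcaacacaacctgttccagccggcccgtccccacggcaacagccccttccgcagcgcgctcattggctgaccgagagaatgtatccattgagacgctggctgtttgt
Gal (chr19:3414545-3414794, minus strand): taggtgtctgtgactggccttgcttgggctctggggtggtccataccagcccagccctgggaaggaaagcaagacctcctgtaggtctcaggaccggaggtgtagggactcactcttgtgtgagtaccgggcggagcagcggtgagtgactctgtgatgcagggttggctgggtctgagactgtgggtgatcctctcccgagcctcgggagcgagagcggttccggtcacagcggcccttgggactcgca

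Counting back from the base before the start as -1, Fos held TGACG from -129 and from -66, and Fosb held one from -60 beside an EGR match from -50. Nr4a1 held 4 TGACG matches, all on the reverse strand, from -233, -213, -69 and -40, and an EGR match from -60. The Bdnf window shown had TGACG on the reverse strand from -35 and was chosen for that match: of the 7 windows of that gene, 5 held no match and 1 an AP-1 site alone. Egr2 held a CArG box from -72 between 2 TGACG matches, from -111 and -55. Of its 5 windows, 3 that overlap held these matches, 1 held a CArG box alone and 1 none. No capitals stand in the windows of Dusp6, a MAP kinase phosphatase, and Gal, a neuropeptide gene, both higher with BDNF. Of the windows read but not printed, Hspa5, also higher with BDNF, held an AP-1 site from -182 and TGACG from -157. Nab2, higher with BDNF, held no match. Npas4, Nr4a3, Pcsk1, Per1, Herpud1 and Slc38a2, all higher with KCl, held TGACG. The genes were picked, so their windows do not stand for either set. Bases further upstream were not read, so a site missing from a window may still lie beyond it. No promoter of Arc, Klf10 or Crem was among those used. Promoters on chromosome 18, which holds Egr1 and Spry4, were left out.

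Over 14051 promoters of 10962 tested genes, with chromosome 18 left out, the shares were as follows. An AP-1 site stood in 4.23% of all promoters, 4.53% of 1081 promoters of genes at least 2-fold higher with BDNF and 7.52% of 705 promoters of genes at least 2-fold higher with KCl. The full CRE stood in 2.55%, 2.41% and 3.55% in the same order, and TGACG, which is also the start of the full CRE, in 25.9%, 23.9% and 24.0%. The site TGATGNAA, bound by ATF4, stood in 1.95%, 1.94% and 3.26%. Of sites typical of housekeeping promoters, the ETS site CCGGAAGT stood in 5.42%, 5.92% and 0.709%, and the NRF1 site in 7.43%, 6.29% and 1.99%. EGR sites stood in 8.95%, 8.70% and 6.24%, CArG boxes in 1.26%, 1.11% and 1.56%, and the E-box CACGTG in 8.14%, 8.05% and 8.09%. The NF-Y site CCAAT stood in 35.1%, 37.1% and 35.6%. The median GC content was 60.0%, 59.6% and 58.0%. These are counts of letters on both strands, with no test, and a match is not evidence of binding.

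**Figure D3:**
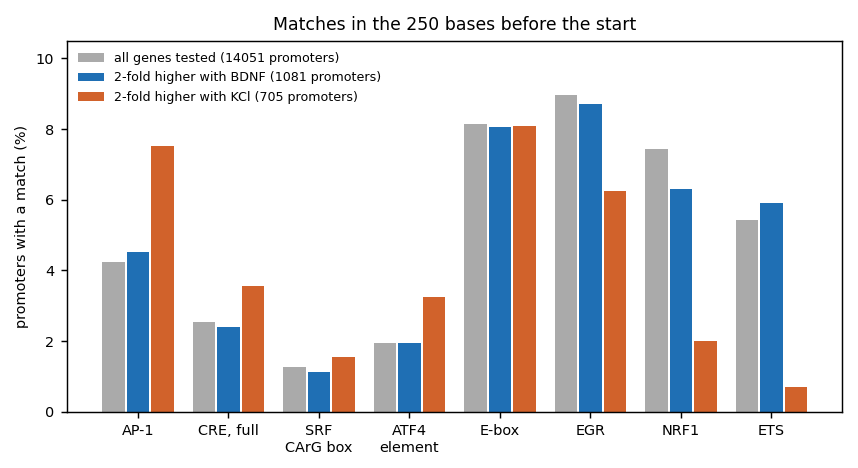
Share of promoters (percent, bars from 0) with at least 1 match to each motif in the 250 bases before the start, for all tested genes (grey, 14051 promoters), genes at least 2-fold higher with BDNF (blue, 1081) and genes at least 2-fold higher with KCl (orange, 705). The KCl set stands above all genes for AP-1 (7.52% against 4.23%) and below for NRF1 (1.99% against 7.43%) and ETS (0.709% against 5.42%). Promoters on chromosome 18 were left out.

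The gene classes are lists of genes by known role, 65 in all, chosen with earlier results of these data known. Each is given by the number of its tested members higher with either stimulus and by its median difference, which for all genes was 0.00, beside 29.6% of all genes higher with BDNF and 27.8% with KCl. At 2-fold or more, the shares over all genes were 7.34% and 5.01%. Against the controls, 22.1% of all genes rose and 21.1% fell with BDNF, and 33.4% rose and 33.1% fell with KCl.

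Among early transcription factors, Egr1 and Egr2 pointed to BDNF and the Nr4a receptors to KCl. Of the Egr factors and their Nab corepressors, 3 of 6 tested members were higher with BDNF and 1 with KCl, with a median difference of 1.15. The other 2 members were not called, so the list as a whole did not move together. Nab2, which binds and restrains Egr factors, was at 313 and 276 with BDNF against 92.4 and 69.5 with KCl (controls 61.7 to 85.0), while its relative Nab1 was at 559 and 543 with BDNF against 864 and 827 with KCl, a difference of -0.62 ± 0.11 in favour of KCl. All 3 Nr4a nuclear receptors were higher with KCl, with a median of -2.21: beside Nr4a1, Nr4a2 was at 242 and 274 with BDNF against 1168 and 1232 with KCl (controls 202 to 228) and Nr4a3 at 1337 and 1326 with BDNF against 5997 and 5858 with KCl (controls 908 to 1054). Over the class, the median log2 level above the controls was 0.20 and 0.39 in BDNF A and B and 2.59 and 2.55 in KCl A and B for Nr4a, and 3.03 and 2.87 in BDNF A and B and 1.26 and 1.13 in KCl A and B for Egr and Nab.

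In the AP-1 and small Maf group, 2 of 11 tested members were higher with BDNF and 9 with KCl, with a median of -0.96. Junb was at 329.7 and 272 with BDNF against 669 and 489 with KCl (controls 60.1 to 84.6), a difference of -0.93 ± 0.16 (limma adjusted p = 6.04e-05), so both stimuli held it above the controls and KCl by more. Maff, a small Maf that lacks an activation domain, was at 74.8 and 78.7 with BDNF against 329 and 263 with KCl, a difference of -1.93 ± 0.21. Jun went the other way, at 1286 and 1426 with BDNF against 884 and 695 with KCl (controls 1096 to 1255) and a difference of 0.79 ± 0.09: it rose with BDNF and fell with KCl. Fosl1 was the other member higher with BDNF (0.43 ± 0.18, limma adjusted p = 0.06), and that call was lost when BDNF A, BDNF B or KCl B was left out (adjusted p = 0.145, 0.164 and 0.303).

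Of 18 further early regulators around Npas4, 1 was higher with BDNF and 14 with KCl (median -0.57). The one higher with BDNF was Ier5, at 1473 and 1584 with BDNF against 812 and 689 with KCl. Nfil3, a bZIP repressor that also acts on the clock, was at 295 and 317 with BDNF against 2032 and 1999 with KCl over controls of 371 to 439, a difference of -2.72 ± 0.12. In the CREB, CRTC and SIK group, 2 of 13 tested members were higher with BDNF and 8 with KCl (median -0.48). The BDNF-higher count was 1 without BDNF B or KCl B. Crem, which encodes the inducible repressor ICER, was at 137 and 139 with BDNF against 542 and 662 with KCl. Creb5 was at 64.9 and 52.2 with BDNF against 119 and 133 with KCl. The salt-inducible kinase gene Sik2 was at 228 and 234 with BDNF against 487 and 409 with KCl. Crtc1, a coactivator of CREB, was at 2002 and 2001 with BDNF against 1249 and 1122 with KCl: it fell with KCl (-0.55 ± 0.09 against the controls) and rose with BDNF (0.21 ± 0.09).

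Among 19 clock genes, 4 were higher with BDNF and 9 with KCl. Per1, a repressor of the clock loop that CREB also drives, was at 366 and 316 with BDNF against 1561 and 1371 with KCl over controls of 286 to 341, so that KCl stood apart. Bhlhe40, another repressor, was at 565 and 501 with BDNF against 151 and 157 with KCl over controls of 177 to 210.1, and there BDNF stood apart. Per3 was at 154 and 162 with BDNF against 81.6 and 70.6 with KCl.

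Krüppel-like factors divided, with 4 of 14 higher with BDNF and 5 with KCl. Klf10, a gene of the early response to growth factors, was at 769 and 723 with BDNF against 105 and 139 with KCl over controls of 193 to 225, a difference of 2.61 ± 0.11 (limma adjusted p = 2.37e-13). Klf8 was at 277 and 227 with BDNF against 489.6 and 469 with KCl. Klf11 was at 149 and 135 with BDNF against 220.2 and 223 with KCl. Without KCl B, 2 Krüppel-like factors were called higher with BDNF. The 333 tested zinc-finger genes named Zfp, many of them KRAB repressors, leaned one way: 138 (41.4%) were higher with BDNF and 60 (18%) with KCl, against 29.6% and 27.8% of all genes, and the median was 0.23. Of them 194 had fallen with KCl against the controls and 82 with BDNF. Zfp493 was at 79.3 and 72.3 with BDNF against 10.8 and 11.6 with KCl (controls 69.5 to 96.4) and Zfp808 at 39.6 and 38.4 with BDNF against 7.87 and 8.10 with KCl. For Zfp493, BDNF lay among the controls and KCl far below them. Among the 60 higher with KCl, Zfp143 was at 185 and 197 with BDNF against 509 and 541 with KCl. Zfp516 was at 284 and 317 with BDNF against 751 and 581 with KCl, and Zfp667 was at 249 and 213 with BDNF against 469 and 529 with KCl.

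Genes that mark cortical layers and projection neuron types were called more often in favour of KCl: 2 of 22 tested members were higher with BDNF and 10 with KCl (median -0.16). With libraries scaled to their totals the median was -0.023, and the median difference at 10 h was 0.10. Fezf2, of deep-layer projection neurons, was at 478 and 420.0 with BDNF against 1599.6 and 1322 with KCl over controls of 576 to 633. Mef2c, a calcium-regulated factor, was at 1914 and 1753 with BDNF against 4798 and 3858 with KCl over controls of 4295 to 4712. For Mef2c one KCl library lay above the controls and one below, and both BDNF libraries lay far below them. In the interneuron list, 5 of 20 were higher with BDNF and 7 with KCl, none by 2-fold (the BDNF-higher count of 5 was 2 without KCl B). Gad1, which makes GABA, was at 3807 and 3379 with BDNF against 5214 and 4959 with KCl.

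Dual-specificity phosphatases, some of which switch off MAP kinases, held more large differences in favour of BDNF than of KCl. Of 20 dual-specificity phosphatases tested, 9 were higher with BDNF, 7 of them by 2-fold, and 5 with KCl, 2 of them by 2-fold. Over all genes, 7.34% were at least 2-fold higher with BDNF and 5.01% with KCl. Dusp6, which dephosphorylates ERK, was at 1909 and 1899 with BDNF, 459 and 515 with KCl and 201, 211 and 288 in the lowest, median and highest control. Its difference was 1.97 ± 0.14 (limma adjusted p = 3.54e-10). Every BDNF library lay above every KCl library, and every KCl library above every control. Dusp2 was at 54.9 and 68.6 with BDNF against 12.8 and 10.4 with KCl. Dusp19 was at 113 and 115 with BDNF against 28.5 and 35.9 with KCl (controls 124 to 155), so here BDNF lay below the controls as well. Dusp1, by contrast, was at 222 and 228 with BDNF against 714 and 721 with KCl over controls of 255 to 281, so that KCl stood apart. Dusp14 was at 87.4 and 84.2 with BDNF against 186 and 295 with KCl. The members nearest the 2-fold limit were Dusp12 (1.08) inside and Dusp7 (0.57) outside for BDNF, and Dusp14 (-1.44) inside and Dusp3 (-0.79) outside for KCl.

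Spry4, Spred2 and Spred3, which inhibit Ras signalling, rose with both stimuli, more with BDNF. Spry4 was at 1079 and 1017 with BDNF against 473 and 448 with KCl over controls of 118 to 153, a difference of 1.19 ± 0.23 (limma adjusted p = 5.49e-04). Spred3 was at 2216 and 2047 with BDNF against 1516 and 1354 with KCl over 433 to 490.2, and Spred2 was at 1492 and 1414 with BDNF against 1053 and 971 with KCl. The wider feedback list was mixed, with 5 of 17 higher with BDNF and 6 with KCl. Cish, a cytokine-induced inhibitor, was at 101 and 108 with BDNF against 311 and 257 with KCl. Errfi1, which inhibits the EGF receptor, was at 374 and 344 with BDNF against 692 and 698 with KCl. Of the ETS factors, 3 of 10 were higher with BDNF and 5 with KCl (median -0.31). Etv5 and Etv4 are targets of receptor tyrosine kinase signalling. Etv5 was at 2066 and 2024 with BDNF against 1254 and 1276 with KCl over controls of 626 to 681, and Etv4 was at 403 and 430.0 with BDNF against 207 and 239.6 with KCl over 180.2 to 221. The repressor gene Erf was at 314 and 321 with BDNF against 664 and 603 with KCl, and Ets1 was at 143 and 160.1 with BDNF against 297 and 277 with KCl.

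Neurotrophic ligands and receptors divided between the stimuli. Of 17 neurotrophin pathway genes tested, 7 were higher with BDNF and 5 with KCl. Gfra1, the receptor that binds GDNF, was at 1105 and 1067 with BDNF against 493 and 405 with KCl over 259 to 280.0. It rose with both stimuli. Ntf3, which encodes neurotrophin-3, was at 9.91 and 15.6 with BDNF against 127 and 156 with KCl over controls of 80.3, 95.0 and 106 (lowest, median and highest). Its difference was -3.40 ± 0.22 (limma adjusted p = 8.84e-11), and the BDNF libraries lay far below the controls. Ntrk2, the TrkB gene, was at 4662 and 5018 with BDNF against 9101 and 8642 with KCl over controls of 5835 to 7734, a difference of -0.87 ± 0.10 (limma adjusted p = 7.27e-07): it fell with BDNF and rose with KCl.

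Other secreted signals were divided too. Of 24 growth factors and cytokines tested, 6 were higher with BDNF and 8 with KCl (5 without BDNF A, BDNF B or KCl B). Areg, a ligand of the EGF receptor, was at 74.8 and 73.2 with BDNF against 22.6 and 20.8 with KCl over controls of 0.98 to 3.11, a difference of 1.72 ± 0.40. Cx3cl1, the chemokine fractalkine, was at 3136 and 3367 with BDNF against 1469.8 and 1468 with KCl. Fgf9 was at 141 and 167 with BDNF against 76.7 and 63.7 with KCl. In the activin and BMP pathway, 3 of 27 tested members were higher with BDNF and 10 with KCl (median -0.27). Inha, the inhibin alpha subunit, was at 453 and 371 with BDNF against 220.2 and 189.9 with KCl, with the KCl libraries below the controls (420.1 to 557). Inhba, the activin A subunit, was at 43.2 and 38.4 with BDNF against 75.7 and 62.5 with KCl. Fstl5 was at 559 and 514 with BDNF against 1412 and 1309 with KCl.

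Neuropeptide genes were split with wide gaps. Of 21 tested, 4 were higher with BDNF and 7 with KCl, and against the controls 15 had risen with BDNF and 16 with KCl. Without BDNF A or KCl A, 2 of the 4 higher with BDNF were called. Gal (chr19:3409915-3414544), the galanin precursor, was at 114 and 113 with BDNF, 3.93 and 2.32 with KCl and 0, 1.07 and 1.96 in the lowest, median and highest control. Its difference was 4.82 ± 0.50 (limma adjusted p = 6.34e-08). The galanin receptor gene Galr1 was at 88.3 and 88.7 with BDNF against 5.90 and 3.47 with KCl with controls of 0 to 4.57, a difference of 4.01 ± 0.58 (limma adjusted p = 6.21e-06), so the ligand gene and a receptor gene rose together with BDNF. Grp, gastrin-releasing peptide, was at 215 and 242 with BDNF against 50.1 and 39.4 with KCl. On the KCl side, beside Adcyap1, Prok2 was at 4.50 and 11.0 with BDNF against 61.9 and 75.2 with KCl, and Cartpt, of the CART peptide, was at 23.4 and 22.0 with BDNF against 79.6 and 118 with KCl.

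Both stimuli raised the RNA for a protein of dense-core vesicles far above the controls. Vgf, a granin that neurotrophins induce, was at 11851 and 12560.1 with BDNF, 6736 and 5310.1 with KCl and 251, 346 and 481 in the lowest, median and highest control. It rose against the controls with both stimuli, by 5.13 ± 0.29 with BDNF. The difference between the stimuli, 1.03 ± 0.36 (limma adjusted p = 0.0317), was not called without BDNF B (adjusted p = 0.113) or without KCl B (adjusted p = 0.154). Ptprn, of the vesicle membrane, was at 2297 and 2225 with BDNF against 1342 and 822 with KCl. Chga, chromogranin A, was at 1776 and 1894 with BDNF against 1154 and 739 with KCl. Beside Pcsk1, the convertase gene Pcsk2 was higher with KCl, at 341 and 315 with BDNF against 837 and 779 with KCl. Pam, which amidates peptides, was at 1178 and 1271 with BDNF against 3407 and 3561 with KCl over controls of 1203 to 1394. In the whole list, 3 of 16 tested members were higher with BDNF and 7 with KCl.

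**Figure D4:**
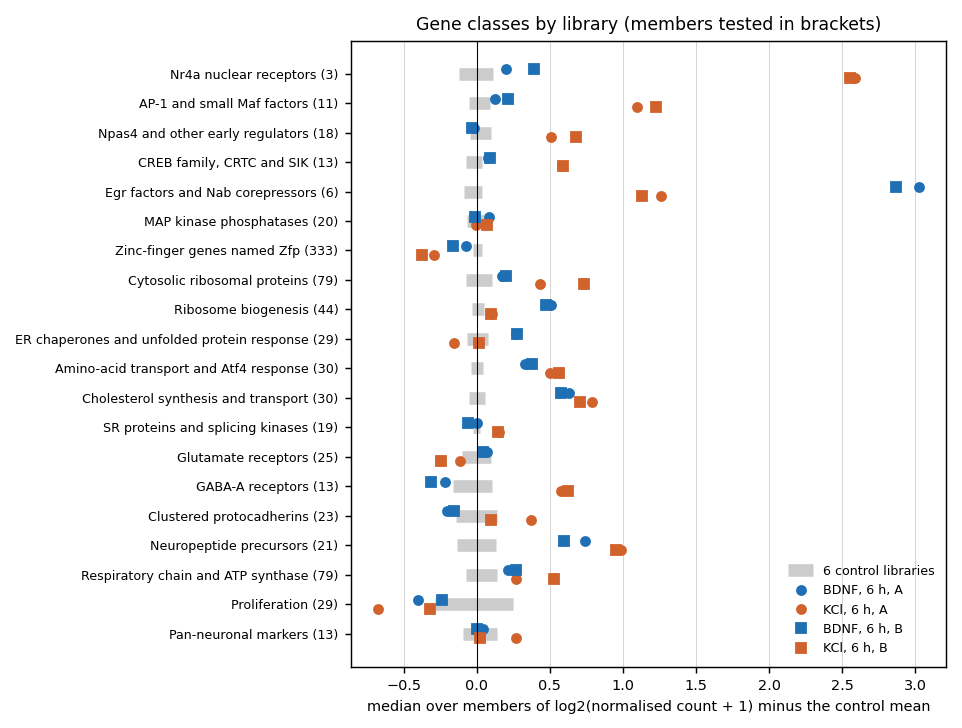
Median over the members of each gene class of log2(normalised read count + 1) minus the mean of the 6 controls, for BDNF A and B (blue circle and square) and KCl A and B (orange circle and square), with the range of the 6 controls as a grey bar and the number of members tested in brackets. Egr factors and Nab corepressors lie furthest right for BDNF (3.03 and 2.87) and Nr4a receptors for KCl (2.59 and 2.55), while several large classes, such as the respiratory chain, show KCl A and B apart from each other.

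Synaptic effector genes did not follow one stimulus. Of 26 plasticity effectors tested, 9 were higher with BDNF and 9 with KCl, while 17 had risen above the controls with each. Beside Arc, the calcium-binding copine gene Cpne6 was at 226 and 184 with BDNF against 62.9 and 62.5 with KCl. Amigo3, an adhesion gene, was at 151 and 159 with BDNF against 87.5 and 57.9 with KCl. Rgs2, which restrains G-protein signalling, was at 674 and 716 with BDNF against 1583 and 1768 with KCl over controls of 499 to 613. Nrn1, the neuritin gene, was at 385 and 414 with BDNF against 856 and 872 with KCl over 155 to 210.1, above the controls with both stimuli.

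Of 46 presynaptic genes, 10 were higher with BDNF and 20 with KCl, with a median of -0.04 whose sign turned when libraries were scaled to their totals. Doc2b, a calcium sensor of spontaneous release, was at 451 and 452 with BDNF against 122 and 77.6 with KCl. Syt12, a synaptotagmin, was at 64.9 and 65.9 with BDNF against 14.7 and 11.6 with KCl. On the KCl side, Unc13b, a priming factor, was at 604 and 565 with BDNF against 1375 and 1122 with KCl. Rph3a, rabphilin, was at 480.1 and 412 with BDNF against 1216 and 918 with KCl over controls of 986 to 1319.7, so BDNF lay below the controls.

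Of 45 postsynaptic scaffold and adhesion genes, 10 were higher with BDNF and 19 with KCl. This balance depended on the KCl libraries: it was 14 and 14 without KCl A, and 7 and 23 without KCl B. Cbln1, a secreted organiser of synapses, was at 1959 and 1955 with BDNF against 306 and 326 with KCl over controls of 542 to 644, a difference of 2.63 ± 0.10 (limma adjusted p = 1.22e-14). C1ql2, a related secreted protein, was at 222 and 224 with BDNF against 67.8 and 42.8 with KCl over controls of 15.6 to 25.6. Of the Homer scaffolds, named members moved apart. Homer2 was at 1213 and 1160.1 with BDNF against 512 and 429 with KCl, and Homer3 was at 153 and 157 with BDNF against 354 and 307 with KCl. The adhesion genes Lrrtm4 and Slitrk4 were higher with KCl. Lrrtm4 was at 84.7 and 97.9 with BDNF against 259.6 and 301 with KCl, and Slitrk4 was at 596 and 527 with BDNF against 1423 and 1284 with KCl.

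Receptors for the main fast transmitters were called in opposite directions. Of 25 glutamate receptor genes, 12 were higher with BDNF and 5 with KCl (median 0.23, and 0.095 without KCl B). With KCl, 11 of the 25 had fallen against the controls, beside 33.1% of all genes. Grm4, a presynaptic metabotropic receptor, was at 516 and 563 with BDNF against 119 and 107 with KCl over controls of 383 to 463. Grik4, a kainate receptor subunit, was at 342 and 348 with BDNF against 112 and 102 with KCl. Grin2c, an NMDA receptor subunit, was at 39.6 and 37.5 with BDNF against 16.7 and 15.0 with KCl. The group II metabotropic receptors were among the 5 higher with KCl. Grm2 was at 157 and 160.1 with BDNF against 626 and 500.1 with KCl, and Grm3 was at 82.9 and 79.6 with BDNF against 189.8 and 263 with KCl. Of 13 GABA-A receptor subunits, 2 were higher with BDNF and 10 with KCl (median -0.41, and -0.66 without KCl B). Against the controls, 7 had fallen with BDNF and 9 had risen with KCl, and the median log2 level relative to the controls was -0.22 and -0.32 in BDNF A and B and 0.57 and 0.62 in KCl A and B.

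Gabra4 was at 486 and 496 with BDNF against 1441 and 1470.2 with KCl over controls of 462 to 556, a difference of -1.57 ± 0.09 (limma adjusted p = 2.17e-11). Gabrb1 was at 153 and 165 with BDNF against 459 and 558 with KCl over 230.2 to 302. Gabrd, the extrasynaptic delta subunit, was at 10.8 and 14.6 with BDNF against 73.7 and 54.4 with KCl over 25.2 to 45.0. For these last 2 subunits BDNF lay below the controls and KCl above. Gabrg1 (-1.02) stood just inside the 2-fold limit. Gabrg3 (0.29) was one of the 2 subunits called higher with BDNF, and 0 to 1 of the 2 were called when any of the 4 libraries was left out.

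Among 46 receptors for monoamines, acetylcholine and peptides, 18 were higher with BDNF, 11 of them by 2-fold, and 18 with KCl, 7 by 2-fold. The 2-fold shares over all genes were 7.34% and 5.01%. Adra2c, an adrenergic receptor, was at 237 and 235 with BDNF against 64.9 and 27.8 with KCl. Adra1d, another, was at 64.9 and 74.1 with BDNF against 14.7 and 13.9 with KCl. Receptors for peptides were found on both sides, the largest difference of the list being that of Galr1, described above, in favour of BDNF. On the KCl side, Hcrtr2, for orexin, was at 35.1 and 32.0 with BDNF against 202 and 150.5 with KCl. Npy1r, for neuropeptide Y, was at 207 and 181 with BDNF against 750.2 and 706 with KCl over controls of 305 to 421.

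Ion channels held large single differences in both directions. Of 74 potassium channel genes, 24 were higher with BDNF and 26 with KCl. Kcnj3, an inward rectifier that G proteins open, was at 266 and 239.7 with BDNF against 1613 and 1483 with KCl over controls of 257 to 332, a difference of -2.61 ± 0.12. Kcnj4, another inward rectifier, was at 208 and 202 with BDNF against 1147 and 934 with KCl. Kcnh4, a voltage-gated channel, was at 65.8 and 54.9 with BDNF against 460.1 and 395 with KCl over 123 to 167. With BDNF, Kcnj3 lay near the controls and Kcnh4 far below them. On the BDNF side Kcng1, a silent modifier subunit, was at 425 and 499 with BDNF against 149 and 110.0 with KCl. Kcnt1, a sodium-activated channel, was at 491 and 430.0 with BDNF against 177 and 137 with KCl. Of 10 sodium channel genes, 4 were higher with BDNF (2 without KCl B) and 5 with KCl, and Scn1a had the largest difference. Scn1a, which encodes an alpha subunit, was at 172 and 186 with BDNF against 1407 and 1034 with KCl over controls of 329 to 422, a difference of -2.75 ± 0.13 (limma adjusted p = 7.20e-13).

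Of 21 calcium channel genes, 8 were higher with BDNF and 9 with KCl. Cacna1d, an L-type channel pore, was at 635 and 563 with BDNF against 168 and 119 with KCl over controls of 494 to 640.0, a difference of 2.07 ± 0.16: with BDNF it lay within the controls and with KCl far below. Cacng5, an auxiliary gamma subunit, was at 247 and 253 with BDNF against 679 and 744 with KCl. Rem2, a GTPase that inhibits voltage-gated calcium channels, was at 83.8 and 83.3 with BDNF against 578 and 656 with KCl over controls of 78.8 to 147 (-2.87 ± 0.25), while its relative Rrad was at 43.2 and 34.8 with BDNF against 16.7 and 12.7 with KCl (1.35 ± 0.46, limma adjusted p = 0.018, and 0.109 without BDNF A). 

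Among ion pumps and exchangers, 7 of 22 were higher with BDNF and 8 with KCl. Slc24a3, a potassium-dependent sodium and calcium exchanger, was at 2167 and 2309 with BDNF against 734 and 598 with KCl. Of 26 adenylyl cyclases and phosphodiesterases, 5 were higher with BDNF and 12 with KCl (median -0.26). Pde1a, a phosphodiesterase that calmodulin activates, was at 1539 and 1472 with BDNF against 380.5 and 388 with KCl over controls of 343 to 396, a difference of 1.97 ± 0.09 (limma adjusted p = 2.37e-13). KCl lay within the controls for Pde1a. On the KCl side, Pde10a was at 1094 and 994 with BDNF against 2634 and 2347 with KCl, and Pde4d was at 599.9 and 538 with BDNF against 1349.9 and 977 with KCl. Of 26 CaM kinase and calcineurin genes, 9 were higher with BDNF and 10 with KCl. Camk1d was at 1737 and 1649.6 with BDNF against 824 and 713 with KCl.

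Axon guidance genes were called more often in favour of KCl: 15 of 62 tested members were higher with BDNF and 27 with KCl (median -0.18, from -0.29 without KCl B to -0.064 without KCl A). Against the controls, 32 had fallen with BDNF, beside 21.1% of all genes. Sema3e, a secreted semaphorin, was at 778 and 762 with BDNF against 217 and 198 with KCl over controls of 76.4 to 102, above them with both stimuli. Unc5b, a netrin receptor, was at 440.5 and 421 with BDNF against 141 and 120.4 with KCl. Unc5c, another, was at 309.9 and 282 with BDNF against 765 and 649 with KCl over 495 to 635. Epha10, an ephrin receptor, was at 81.1 and 72.3 with BDNF against 285 and 169 with KCl. In the Wnt list, 6 of 38 tested members were higher with BDNF and 13 with KCl (median -0.18, but -0.065 without BDNF A and -0.069 without KCl B). Rspo2, which enhances Wnt signals, was at 485 and 508 with BDNF against 179.9 and 194 with KCl. The ligand gene Wnt4 was at 24.3 and 37.5 with BDNF against 69.8 and 69.5 with KCl. 

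Of 11 perineuronal net genes, 1 was higher with BDNF (2 without KCl A) and 5 with KCl (3 without BDNF A, BDNF B or KCl A). Hapln1, a link protein that binds aggrecan to hyaluronan, was at 89.2 and 97.0 with BDNF against 335 and 251 with KCl. Has3, which makes hyaluronan, was at 226 and 192 with BDNF against 499 and 435 with KCl. With Acan, these genes supply the core of the net. Tnc, tenascin-C, was the one higher with BDNF, at 3367 and 3687 with BDNF against 1845 and 1780.4 with KCl. Serpinb2, an inhibitor of plasminogen activators, was at 94.6 and 82.3 with BDNF against 20.6 and 17.4 with KCl over controls of 7.83 to 12.4.

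Clustered protocadherins, cell-surface recognition proteins expressed in different combinations by different neurons, moved as small steps in one direction. None of 23 tested was higher with BDNF and 16 were higher with KCl, none by 2-fold, with a median of -0.43. The count higher with KCl was 12 without KCl A and 19 without KCl B. Pcdhb3 was at 156 and 163 with BDNF against 311 and 281 with KCl and Pcdhb10 at 132 and 129.9 with BDNF against 257 and 203 with KCl. These genes share long stretches of sequence, so reads may have been shared among them, and the median log2 level relative to the controls was -0.21 and -0.16 in BDNF A and B and 0.37 and 0.10 in KCl A and B.

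Genes of protein synthesis divided by step. Of 44 ribosome biogenesis genes, 29 (65.9%) were higher with BDNF, against 29.6% of all genes, and 3 with KCl (1 without KCl B), with a median of 0.44. Against the controls 42 of the 44 had risen with BDNF and 19 with KCl, beside 22.1% and 33.4% of all genes. Their median log2 level relative to the controls was 0.51 and 0.48 in BDNF A and B and 0.10 and 0.10 in KCl A and B, so the replicates lay closer to each other than the stimuli did. Rrp12, which exports ribosomal subunits, was at 515 and 492 with BDNF against 261 and 194 with KCl over controls of 225 to 279.7. Rrp9, a part of the U3 particle, was at 314 and 368 with BDNF against 164 and 150.5 with KCl. Gar1, of H/ACA particles, was at 278 and 244 with BDNF against 173 and 86.8 with KCl.

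Messages for the ribosomal proteins themselves pointed to KCl, in small steps. Of 79 tested, 2 were higher with BDNF and 57 (72.2%) with KCl, against 27.8% of all genes, none by 2-fold, and the median was -0.37. This rested in part on KCl B. The median log2 level relative to the controls was 0.17 and 0.20 in BDNF A and B and 0.44 and 0.74 in KCl A and B, the count higher with KCl was 36 without KCl B and 67 without KCl A, the BDNF-higher count was 6 without KCl B, and the median ranged from -0.54 to -0.20 over the libraries left out. KCl B is also the library rich in ribosomal RNA, whose part in these counts was not tested. Rpl13a was at 822 and 882 with BDNF against 1489.5 and 1837 with KCl over controls of 729 to 906, while Rpl3 was at 1044 and 967 with BDNF against 722 and 689.9 with KCl. Many ribosomal protein genes have processed pseudogenes that share reads with them, so single values are uncertain.

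Translation factors were closer to even, with 23 of 64 higher with BDNF and 13 with KCl (6 without KCl B). Eif2b3, a subunit of the exchange factor of eIF2, was at 229 and 223 with BDNF against 91.4 and 78.7 with KCl. Another subunit, Eif2b2, was at 298 and 304 with BDNF against 432 and 448 with KCl. 

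The amino-acid and Atf4 response leaned to KCl: 5 of 30 tested members were higher with BDNF and 17 with KCl (median -0.34), and the BDNF-higher count was 3 without BDNF B. Slc38a2, a sodium-coupled amino-acid carrier, was at 1794 and 1824 with BDNF against 8078 and 9732 with KCl over controls of 2227 to 2524, a difference of -2.29 ± 0.09 (limma adjusted p = 5.03e-14). Atf4, the factor of the integrated stress response, was at 2275 and 2259 with BDNF against 4025 and 4506 with KCl over 1496 to 1711, a difference of -0.91 ± 0.09 (limma adjusted p = 2.81e-08), so Atf4 was above the controls with both stimuli. Sesn2, one of its targets, was at 438 and 462 with BDNF against 1074 and 984 with KCl. Slc7a5, the large neutral amino-acid carrier, went the other way by a small step, at 3819 and 3959 with BDNF against 3089 and 3381 with KCl and a difference of 0.27 ± 0.08 (limma adjusted p = 0.00818). Of the tRNA synthetases, 9 of 20 were higher with BDNF and 3 with KCl. Dars, for aspartate, was at 799 and 733 with BDNF against 187 and 243 with KCl, and Cars, for cysteine, was at 726 and 719 with BDNF against 1406 and 1306 with KCl.

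Chaperones of the endoplasmic reticulum, which fold secreted proteins, were mostly higher with BDNF. Of 29 tested, 19 (65.5%) were higher with BDNF, against 29.6% of all genes, and 4 with KCl, with a median of 0.39. Hspa5, the chaperone BiP, was at 8208 and 8912 with BDNF against 5428 and 5933 with KCl over controls of 5797 to 7044, a difference of 0.59 ± 0.09 (limma adjusted p = 1.24e-05). Sdf2l1 was at 258 and 245 with BDNF against 108 and 111 with KCl. Creld2 was at 386 and 377 with BDNF against 182 and 191 with KCl. The list holds chaperones and genes of the unfolded protein response, and its called members stood on both sides. Among the members higher with KCl, Herpud1, which serves the degradation of misfolded proteins, was at 451 and 448 with BDNF against 986 and 1227 with KCl over controls of 351 to 399 (-1.29 ± 0.10). Syvn1, a ubiquitin ligase of that pathway, was at 948 and 901 with BDNF against 1378 and 1315 with KCl. The co-chaperone gene Dnajb9 was at 583 and 676 with BDNF against 793 and 1027 with KCl.

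Most cholesterol genes rose with both stimuli, and more of them were higher with KCl than with BDNF. Of 30 tested, 24 had risen with BDNF and 23 with KCl against the controls, and 5 were higher with BDNF and 17 with KCl (median -0.30). Insig1, a brake on sterol synthesis, was at 3256 and 3178 with BDNF against 5857 and 6063 with KCl. Some synthesis enzymes went the other way. Nsdhl was at 1696 and 1711 with BDNF against 818 and 839 with KCl, and Mvd was at 863 and 763 with BDNF against 446 and 381 with KCl.

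Of 34 genes of glucose use and hypoxia, 10 were higher with BDNF and 15 with KCl (9 without BDNF A). Slc2a1, a glucose transporter, was at 277 and 327 with BDNF against 597 and 762 with KCl. The neuronal glucose transporter gene Slc2a3 was at 1893 and 1990.0 with BDNF against 3791 and 3753 with KCl. Eno2, the neuronal enolase, went the other way, at 1878 and 1895 with BDNF against 1065 and 956 with KCl. Respiratory chain genes were called 13 times higher with BDNF and 30 times with KCl among 79, and the KCl count was 12 without KCl B.

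The list of FoxO targets and alpha-arrestins was mixed. Arrdc3, an alpha-arrestin, was at 2872 and 2621 with BDNF against 580.1 and 683 with KCl over controls of 3113 to 3738, a difference of 2.12 ± 0.09 (limma adjusted p = 2.52e-13): BDNF lay just below the controls and KCl far below. Txnip, another alpha-arrestin, which limits glucose uptake, was at 185 and 181 with BDNF against 60.0 and 113 with KCl over controls of 519 to 663, below them with both stimuli. Ccng2 was at 739 and 806 with BDNF against 1963 and 2225 with KCl over 1375 to 1509. Of 21 members, 7 were higher with BDNF and 10 with KCl.

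Among regulators of RNA and chromatin, SR splicing proteins and their kinases were mostly higher with KCl: 3 of 19 tested members were higher with BDNF and 12 with KCl (median -0.28, and the BDNF-higher count was 1 without BDNF A). Srsf5 was at 4488 and 4445 with BDNF against 6319 and 7125 with KCl. The kinase gene Clk1 was at 1699 and 1655 with BDNF against 2273 and 2630.1 with KCl. Tra2b, of the BDNF side, was at 1784 and 1688 with BDNF against 1073 and 1196 with KCl. Of 29 histone deacetylase and acetyltransferase genes, 4 were higher with BDNF and 13 with KCl, and the BDNF-higher count was 7 without KCl A. Class IIa deacetylases, which leave the nucleus when calcium signals arrive, were among the latter. Hdac9 was at 262 and 236 with BDNF against 1724 and 1589 with KCl over controls of 254 to 318, a difference of -2.73 ± 0.12 (limma adjusted p = 1.79e-13). Hdac5 was at 1022 and 987 with BDNF against 3069 and 2277 with KCl (-1.39 ± 0.11). Hdac7 was at 374 and 358 with BDNF against 740.3 and 632 with KCl (-0.90 ± 0.13). For Hdac9 BDNF lay close to the controls. 

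Of 24 imprinted genes, 5 were higher with BDNF, 4 of them by 2-fold, and 9 with KCl. Dio3, the deiodinase that inactivates thyroid hormone, was at 122 and 109.8 with BDNF against 9.83 and 10.4 with KCl over controls of 25.3 to 37.3, a difference of 3.39 ± 0.24. H19, a long non-coding RNA, was at 70.3 and 80.5 with BDNF against 23.6 and 19.7 with KCl. Of 38 histone genes, 9 were higher with BDNF (5 without KCl A) and 13 with KCl, 8 of these by 2-fold. Most histone messages lack a poly(A) tail, and these libraries were made by oligo-dT capture.

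Transcripts of dividing cells and glia differed as well. Of 29 proliferation genes, 10 were higher with BDNF and none with KCl, but without KCl A 6 were higher with BDNF and 4 with KCl. Against the controls, 14 had fallen with BDNF and 22 with KCl. Mcm6, of the replication helicase, was at 686 and 649 with BDNF against 241 and 303 with KCl over controls of 673 to 871, and Mcm2, of the same complex, was at 683 and 634 with BDNF against 293 and 276 with KCl. For Mcm6 the KCl libraries lay far below the controls.

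Of 17 astrocyte and radial glial markers, 3 were higher with each stimulus, and the BDNF-higher count was 5 without KCl B. Pax6, of radial glia, was at 363 and 323 with BDNF against 612 and 634 with KCl. Glul, glutamine synthetase, was at 2468 and 2366 with BDNF against 3127 and 3566 with KCl. Of 9 oligodendrocyte lineage markers, 4 were higher with BDNF and 2 with KCl. Microglial markers counted 1 and 2 of 8 (the KCl-higher count was 1 without BDNF A), and vascular ones 1 and 3 of 8. Without BDNF A the vascular counts were 2 and 1, and without BDNF B or KCl A the count higher with BDNF was 0. The part of these cells in the differences above was not tested. Of 13 pan-neuronal markers, 1 was higher with BDNF and 4 with KCl, among them Snap25, of the fusion machinery, at 2524 and 2371 with BDNF against 3598 and 3612 with KCl. Tubb3 was the one higher with BDNF (0.19 ± 0.09, limma adjusted p = 0.086), a call lost without BDNF A, BDNF B or KCl B (adjusted p = 0.242, 0.164 and 0.627), while 3 such markers were called without KCl A.

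Lists of the cell's housekeeping machinery showed few large differences. Genes of translocation and glycosylation at the endoplasmic reticulum counted 12 of 30 higher with BDNF and 5 with KCl (8 without KCl A and 3 without KCl B), and coat proteins 14 and 9 of 39 (5 without KCl B). Cytosolic and mitochondrial chaperones counted 10 and 5 of 23 (2 without BDNF A and 3 without BDNF B or KCl B), and proteasome subunits 10 and 5 of 35. The proteasome count higher with KCl was 2 without BDNF A or BDNF B, 8 without KCl A and 0 without KCl B. No member of these 4 lists differed by 2-fold. Mitochondrial carriers counted 13 and 7 of 40, and of the 13 genes of the mitochondrial genome 1 was higher with BDNF and none with KCl.

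Smaller lists were mixed as well. RGS proteins, which shorten G-protein signals, counted 5 of 15 higher with BDNF and 7 with KCl (median -0.33, and -0.17 without BDNF A). Genes of the actin cytoskeleton that SRF drives counted 3 and 4 of 19 (2 without BDNF A), and the plasminogen system 3 and 7 of 21 (5 higher with BDNF without KCl A and 4 with KCl without BDNF A). CTCF and cohesin genes counted 3 and 2 of 14 (4 with KCl without KCl A). Over all 65 lists, which held 1973 different tested genes, 21 medians lay above 0 and 44 below (36 and 29 with libraries scaled to their totals), and 15 were more than 0.3 from 0.

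The make-up of the genes at the 2 ends is given here as a description. The median gene length was 22.4 kb for genes at least 2-fold higher with BDNF, 27.4 kb for those at least 2-fold higher with KCl and 19.7 kb over all tested. Protein-coding genes made up 86.3%, 85.0% and 83.0% of these sets. Long intergenic and antisense RNAs made up 4.71%, 6.77% and 3.12%, and pseudogenes 5.38%, 2.83% and 10.7%. No test was made of these shares.

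The same stimuli were also sampled at 1 h and 10 h. At 1 h 6936 genes (42.8%) were called between BDNF and KCl, 900 of them (5.55% of genes tested) at least 2-fold higher with BDNF and 451 (2.78%) with KCl. At 10 h 7287 (45%) were called, with 592 (3.65%) at least 2-fold higher with BDNF and 635 (3.92%) with KCl. The difference at 6 h itself differed from that at 1 h in 7802 genes (48.1%) and from that at 10 h in 1242 (7.66%), by the interaction term of the limma fit. The latter count was 412 to 758 without BDNF A, BDNF B or KCl B and 3153 without KCl A. Genes at least 2-fold higher with BDNF at 6 h had a median difference of 0.06 at 1 h and 0.82 at 10 h. For genes at least 2-fold higher with KCl the medians were -0.33 and -1.06. These medians describe genes that the 6 h values chose, and the interactions use the 6 h libraries too.

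Egr2 kept differences of 4.08, 3.96 and 4.01 at 1, 6 and 10 h. Arc had its largest difference at 1 h, at 5.30, then 3.18 and 3.12, and the change from 1 h was called (-2.12 ± 0.27, limma adjusted p = 1.93e-06). Late differences were common. Galnt9 (-0.13, 3.18 and 3.02), Cbln1 (-0.05, 2.63 and 2.52) and Gal (0.98, 4.82 and 5.75) showed most of their difference from 6 h on. On the KCl side, Fosb differed by -2.80, -5.50 and -3.34, and its 6 h difference was called against both other times (limma adjusted p = 7.79e-06 and 0.00369). Hdac9 (0.01, -2.73 and -2.80) and Kcnj3 (-0.59, -2.61 and -2.37) showed theirs from 6 h on. Junb kept -0.82 and -0.93 and had -0.03 at 10 h (interaction -0.90 ± 0.23, limma adjusted p = 0.0311).

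Several genes were higher with BDNF at 1 h and higher with KCl at 6 h. Acan had a difference of 2.27 at 1 h, which turned to -3.46 at 6 h and -4.54 at 10 h, with an interaction of -5.73 ± 0.50 between 6 h and 1 h (limma adjusted p = 3.42e-08). Slc2a1 moved from 1.35 to -1.16, Sik2 from 1.09 to -0.95, Rem2 from 1.21 to -2.87, Dusp14 from 2.13 to -1.44 and Zfp516 from 1.94 to -1.14, with limma adjusted p of the interaction of at most 6.42e-06. By class, the median of the Krüppel-like factors was 0.96 at 1 h, against 0.06 at 6 h and -0.16 at 10 h, and the Egr and Nab genes had 3.15, 1.15 and 1.25. Endoplasmic reticulum chaperones had a median of -0.05 at 1 h and 0.34 at 10 h. Their 6 h difference was called against that at 1 h in 26 of 29, beside 48.1% of all genes. GABA-A receptors had -0.09 and -0.76, and Zfp genes 0.51 and 0.05.

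**Figure D5:**
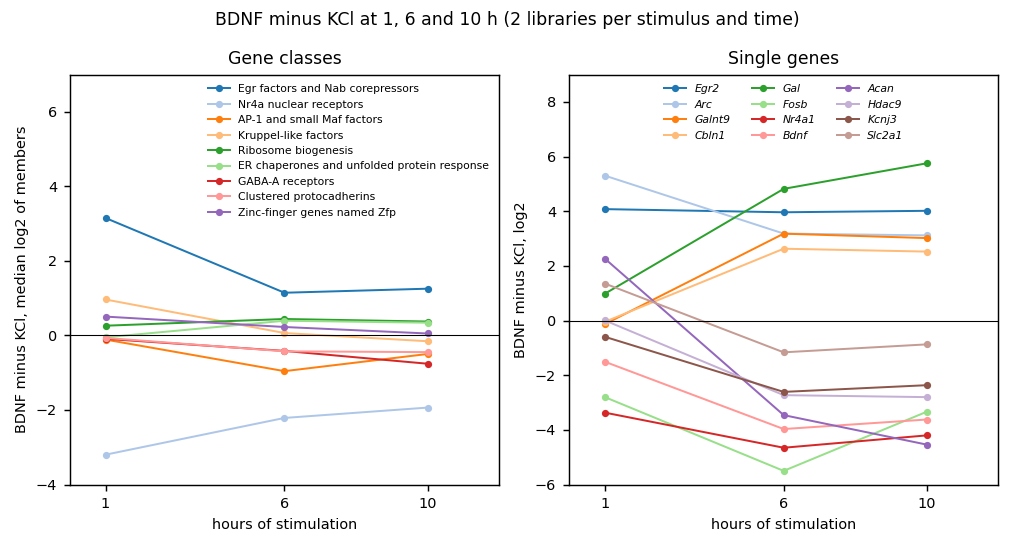
Log2 difference, BDNF minus KCl, at 1, 6 and 10 h of stimulation, as the median over the members of 9 gene classes (left) and for 12 single genes (right), from 2 libraries per stimulus and time. Acan crosses from 2.27 at 1 h to -3.46 at 6 h, Galnt9, Cbln1 and Gal open towards BDNF after 1 h, and Egr2 stays between 3.96 and 4.08.

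Chromatin accessibility was measured by ATAC-seq in the same groups, with 2 samples per stimulus at 6 h that the labels list apart from the RNA samples. Which of them shares a culture with which RNA library is not given. The reads in peaks numbered 3594096 and 5827363 with BDNF against 4208446 and 1241829 with KCl, so the second KCl sample is the shallowest of the 4. Of 56383 peaks tested with edgeR, 1141 (2.02%) were more open with BDNF and 767 (1.36%) with KCl. Leaving out any of the 4 samples brought these counts to 249 to 635 and 140 to 426. Peaks whose nearest start within 50 kb belonged to a gene at least 2-fold higher with BDNF were more open with BDNF in 1.81% of 2046 and with KCl in 1.03%. For genes at least 2-fold higher with KCl the shares were 1.83% and 1.33% of 1803 peaks, and for all genes tested 2.06% and 1.11% of 28903. The shares near both gene sets lay close to the background.

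Near 27 of the leading and known genes, 4 peaks of 87 were called. Close to Npas4, a peak centred 635 bases from the start (chr19:4990829-4991073) was more open with KCl, at 7.43 and 4.68 scaled reads with BDNF and 20.3 and 30.2 with KCl (log2 difference -2.01 ± 0.59, edgeR adjusted p = 0.0526). Fos had one 18394 bases away (chr12:85455008-85455985), at 268 and 333 against 421 and 399 (-0.45 ± 0.13, edgeR adjusted p = 0.0422). Alk, whose RNA was higher with BDNF, and Mir670hg, whose RNA was higher with KCl, each had a called peak of the opposite sign (-0.50 and 2.39). Another peak near Mir670hg (chr2:94246845-94247468) had the sign of its RNA, at -0.65 (edgeR adjusted p = 0.117), and was called without the second KCl sample (-0.90, adjusted p = 0.0647). None of the 4 called peaks was called without the second KCl sample (adjusted p from 0.107 to 0.398), and no peak near Egr1, Egr2, Arc, Bdnf, Fosb, Nr4a1 or Pcsk1 was called.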

How the data were processed

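RNA was measured in 18 libraries of cultured mouse cortical neurons (single-end reads, oligo-dT selection), 2 in each of 9 groups, and accessible chromatin by ATAC-seq in 18 samples of the same groups. Per the study's methods, RNA reads were aligned with TopHat2 to mm10 with GENCODE annotation. Which read counter was used is not given in the sources used here. Gene counts were divided by DESeq2 size factors, and the authors deposited the result, a normalised signal per gene, from which whole reads were recovered for all values within 0.01. The ATAC table the authors deposited holds read counts per MACS2 peak, whole numbers without scaling. Tables of the authors' own comparisons (fold changes and p-values) were not used, and 0 columns of sample values went unused.

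Normalised values were tested on the log2(value + 1) scale with limma 3.58.1 (R 4.3.3, trend and robust), all 18 RNA libraries in 7 levels (3 times of each stimulus, with the 6 controls as 1 level), two-sided, Benjamini-Hochberg adjusted over 16209 of 26709 genes with a mean of at least 10, and called at an adjusted p below 0.1. A fold change on this scale understates the change of low genes. The self-test on simulated counts was run first. ATAC counts were tested with edgeR 4.0.16 (quasi-likelihood, LOESS offsets) in 56383 peaks with a mean of at least 10. Gene positions and names come from GENCODE M21 (GRCm38, the same coordinates as mm10) and promoter sequences from RefSeq (GRCm38.p6), with a match for 10962 of 16015 tested genes with a symbol. Promoters on chromosome 18 were left out before these matches were counted.

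Genes are named by a rule: the 10 largest differences in each direction among called genes with a mean of at least 100, a symbol and stimuli that do not overlap, then up to 3 called members of each class in each direction, 18 genes known from this field, and the members nearest a 2-fold limit. The comparison, the gene lists and the rule were chosen with earlier results of these data known. Alternatives tried were TMM and library-total scaling, a pseudocount of 5, no filter, an adjusted p below 0.01, the 6 h libraries alone, edgeR and DESeq2 1.42.0 on the whole reads, a replicate block, and leaving out each 6 h library. The letters A and B were not taken as pairs: libraries with the same letter deviated together with a correlation of 0.128 at 6 h, 0.066 at 1 h and 0.059 at 10 h. A motif was counted once per promoter on either strand. Some members of the gene lists are counted in their class but not reported singly here.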

Additional observations from a re-analysis of the deposited data

Results flagged for a closer look

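The difference between BDNF and KCl in Acan turned direction between times. It was 2.27 at 1 h and -3.46 at 6 h on the log2 scale, and the interaction of -5.73 ± 0.50 had a limma adjusted p of 3.42e-08. Bdnf was at 38.5 normalised reads in the lowest of the 6 control libraries, far from the other 5, whose highest value was 65.1. Dusp6 was at 288 in the highest of the 6 controls, against a median of 211. Chance puts about 1 in 20 groups of this size past the limit used for the last 2 genes. In both genes the differences between the stimuli stood between values far outside these gaps, and the BDNF and KCl libraries did not overlap.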

How the results depend on the processing

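Of the counts between BDNF and KCl at 6 h, those higher with BDNF stayed within 1.5 times under every alternative, and edgeR (4695 higher with BDNF and 4688 with KCl) and DESeq2 (4308 and 4385) gave similar totals. Scaling to the library total gave 6178 and 3212. At an adjusted p below 0.01, 2994 genes were higher with KCl, 4691 differed in the 6 h against 1 h interaction, 117 in that against 10 h and 3839 were called with BDNF against the controls, and 203 and 95 peaks were more open with BDNF and KCl. Without the filter, 1549 genes were at least 2-fold higher with KCl. With the 6 h libraries alone, 4529 genes were called with BDNF against the controls. Leaving out 1 library gave 412 to 3153 genes for the interaction with 10 h, 4444 to 7569 for BDNF against the controls, 249 to 635 peaks more open with BDNF and 140 to 426 with KCl. With 1 library of a group left out, the lone library is assumed to vary like the others. TMM gave 1817 and DESeq2 size factors 1949 peaks more open with BDNF. Of the 65 class medians, 23 turned sign under at least 1 alternative, the furthest from 0 of them at 0.22: 15 with library-total scaling and 17 with 1 library left out (11 without KCl A). In 5 of these classes both values lay further from 0 than the spread between replicates. Library-total scaling brought Sprouty and Spred feedback to 0.073, synaptic plasticity effectors to 0.091 and CTCF and cohesin to 0.066. Leaving out 1 library gave -0.52 to 0.086 for RGK and Rasd GTPases (highest without KCl A) and -0.29 to 0.13 for vascular and meningeal markers (highest without BDNF A). Of the values of single named genes under the alternatives, 4502 kept their call, 203 (of 63 genes) lost it, 1 gained it and 0 turned direction. The cause of these changes was not tested. Depth was 8508452 to 36699187 reads, and 2 libraries per group limit the precision.

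With the column letters as a replicate block, 4851 genes were higher with BDNF and 4609 with KCl, 1191 and 817 at 2-fold, 7976 and 1361 differed in the interactions with 1 h and 10 h, and 7240 (BDNF) and 10945 (KCl) were called against the controls. The block moved no count by more than 1.5 times. The labels do not say what the letters share. No paired analysis was possible for the ATAC samples because their columns carry no replicate number.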
